A study of Mus musculus with 6 samples.

Results

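The dorsolateral prostate (DLP) of a mouse that carries a human c-MYC transgene (MYC) was compared with the DLP of a wild-type (WT) littermate by bulk RNA-seq. The comparison rests on 2 of the 6 libraries of the series, 1 of each genotype, and on 12361 of the 24908 genes in the table, those whose FPKM averaged at least 1 across all 6 libraries. FPKM are fragments scaled to transcript length and to the mapped reads of a library. For each gene the log2 ratio is the log2 of (FPKM + 1) in MYC DLP over (FPKM + 1) in WT DLP. A gene was called higher or lower in MYC when this ratio reached 1 or -1, a 2-fold difference. Since 1 is added to each value, a low gene differs by more in FPKM than its log2 ratio shows.

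Both mice were FVB males of 12 weeks on a purified diet. The MYC mouse was heterozygous for the Hi-MYC transgene, which the androgen-responsive ARR2Pb promoter drives in the prostate epithelium. Each of the 3 lobes, the anterior prostate (AP), the DLP and the ventral prostate (VP), was dissociated with enzymes into a cell suspension and gave 1 library per genotype. With 1 library a side there is no replicate check and no p-value, and the genotype cannot be told apart from any other difference between these 2 animals. The lobes of a genotype come from the same mouse, so that the DLP and VP comparisons are not independent.

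The prostate epithelium consists of secretory luminal cells over a layer of basal cells, in a stroma of smooth muscle and fibroblasts. Luminal cells make seminal fluid proteins under the control of androgens, and each mouse lobe has a secretory repertoire of its own. MYC is a transcription factor known for its effects on ribosome production, metabolism and cell division.

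The estimated depth was 47.19 M mapped reads in WT DLP and 34.76 M in MYC DLP, within a range of 25.48 M to 50.21 M over the 6 libraries. Of the genes with a 2-fold difference in DLP, 799 of the 799 higher and 418 of the 419 lower in MYC had a 95% Clopper-Pearson interval of the ratio of estimated reads that left out 1. These intervals cover counting error only, not the difference between animals. A value of 0 is given as listed, since it can be a failed estimate: 9530053A07Rik is listed at 0 in MYC AP and has 4177 FPKM in WT AP. Under the alternative scalings and filters on the level, the median log2 ratio of all genes in DLP lay between -0.05 and 0.04.

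The labelled tissue was checked against its markers. Krt8, a luminal keratin, was at 446 FPKM in WT and at 531 FPKM in MYC DLP, its partner Krt18 526 and 611 FPKM, and the epithelial adhesion gene Epcam 316 and 411 FPKM. The gene listed as Myc had 201 FPKM in WT against 586 FPKM in MYC DLP, a log2 ratio of 1.54. The same gene was at 226 FPKM in WT and at 1696 FPKM in MYC VP. In the AP it had 230 and 231 FPKM, so that it does not tell the AP genotypes apart, and MYC AP stands throughout for the library labelled MYC. The table does not separate human from mouse MYC reads.

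In DLP, 799 genes (6.46%) were higher and 419 (3.39%) lower in MYC than in WT, around a median log2 ratio of 0.03 over all genes compared. Of the higher genes, 196 were past 4-fold and 34 past 16-fold, and of the lower genes 78 and 17. Low genes weigh on these counts: 241 of the higher and 195 of the lower genes had a mean of at least 10 FPKM. Small RNA genes, whose FPKM rest on very short transcripts, made up 18 of the higher and 21 of the lower genes. Of all these genes, 23 of the higher and 16 of the lower genes are listed at 0 in 1 of the 2 DLP libraries.

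**Figure D1:**
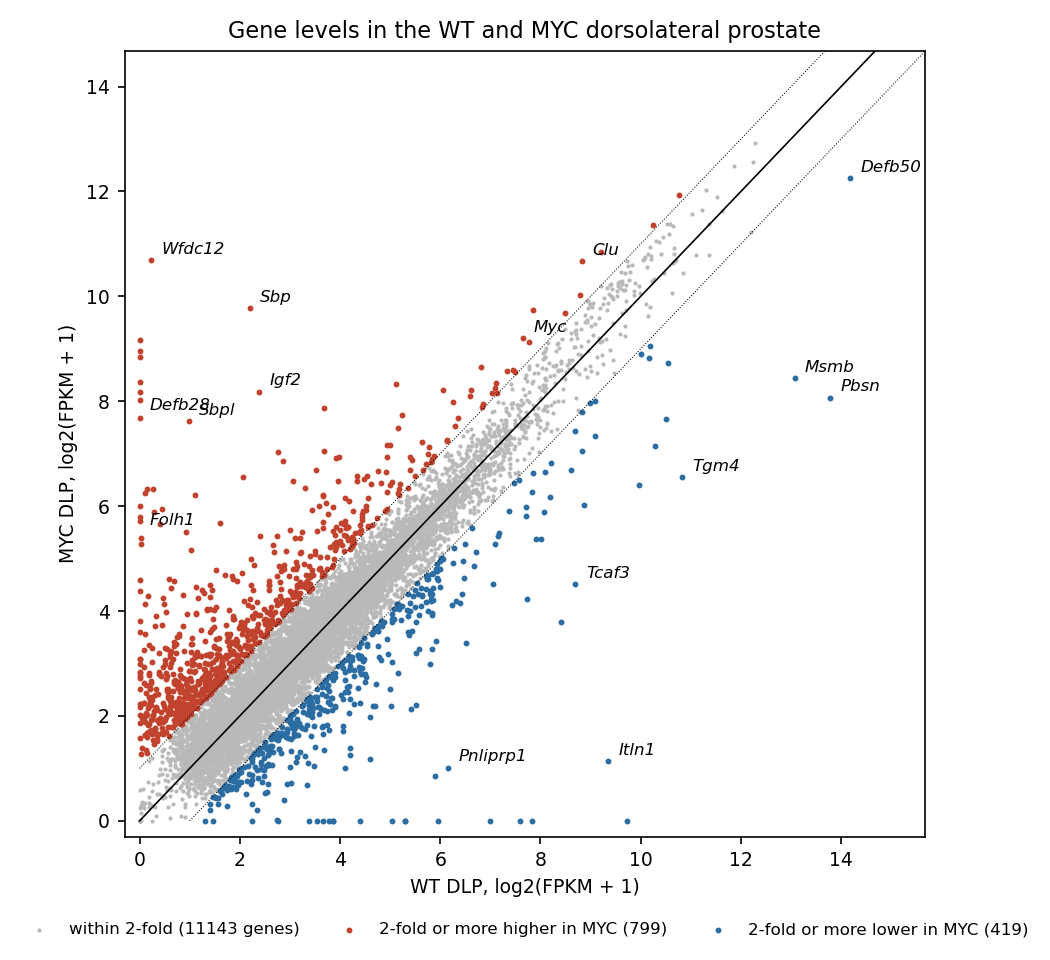
Level of each of the 12361 genes compared in WT DLP (horizontal) and MYC DLP (vertical), as log2(FPKM + 1), 1 library each. The solid line marks equal levels and the dotted lines a 2-fold difference. The secretory genes Pbsn, Msmb and Tgm4 lie far below the line and Wfdc12, Sbp and Igf2 far above it.

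Genes of the prostatic secretion held the highest levels in WT DLP and were far lower in MYC DLP, where other secretory genes were higher. Defb50, a beta-defensin and the highest gene of WT DLP, had 18600 FPKM there and 4866 FPKM in MYC DLP. Pbsn, which encodes probasin, had 14037 and 267 FPKM, 52.5-fold lower in MYC. Msmb, which encodes beta-microseminoprotein, had 8601 and 346 FPKM, 24.9-fold lower. These 3 genes were the 3 highest of WT DLP, and Pbsn and Msmb were not among the 10 highest of MYC DLP. The 10 highest genes of WT DLP together held 15.8% of its summed FPKM, and the 10 highest of MYC DLP held 10.2% of its own. The WT DLP set held 8.06% of the summed FPKM of MYC DLP. That set was chosen by its WT level and so leans toward a lower share in MYC DLP. It also holds genes that are not secretory, such as the ribosomal protein gene Rplp1. In bulk tissue, fewer cells of a type and less RNA per cell cannot be told apart.

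Of the 20 genes of a list of prostate secretory proteins, 17 were compared, of which 7 were higher and 7 lower in MYC DLP. Their summed level was 44930 FPKM in WT and 8732 FPKM in MYC DLP. The lower members beside Pbsn, Msmb and Defb50 were Tgm4, Azgp1, 9530002B09Rik and Apof. Tgm4, the transglutaminase that forms the copulatory plug, was at 1804 FPKM in WT and at 92.5 FPKM in MYC DLP. The higher members were Sbp, Sbpl, Spink1, Ltf, Wfdc3, Clu and Spink8. Sbp, a spermine-binding protein gene, had 3.58 FPKM in WT against 878 FPKM in MYC DLP. Its neighbour Sbpl had 0.981 and 197 FPKM. Sbp and Sbpl share sequence, and how reads were divided between them is uncertain. Clu, the secreted chaperone clusterin, had 456 and 1636 FPKM. The list median of 0.40, beside 0.03 for all genes, lies between these opposite differences and turned to -1.65 over members averaging at least 10 FPKM.

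The bases before the start of Pbsn, Tgm4 and Wfdc12, described next, are shown. ARR2Pb is built from the probasin promoter. Tgm4 and Wfdc12, a secreted protease inhibitor, are examples of genes lower and higher in MYC DLP and do not stand for all of them. Each sequence holds the 250 bases before the RefSeq start in GRCm38.p6, 5′ to 3′ on the strand of the gene: chrX:77853501-77853750 (minus strand) for Pbsn, chr9:123034491-123034740 (plus strand) for Tgm4 and chr2:164190559-164190808 (minus strand) for Wfdc12. Capitals mark the TATA motif TATAAA and the androgen response half-site TGTTCT, searched on both strands, so that AGAACA is the half-site read from the other strand.
Pbsn: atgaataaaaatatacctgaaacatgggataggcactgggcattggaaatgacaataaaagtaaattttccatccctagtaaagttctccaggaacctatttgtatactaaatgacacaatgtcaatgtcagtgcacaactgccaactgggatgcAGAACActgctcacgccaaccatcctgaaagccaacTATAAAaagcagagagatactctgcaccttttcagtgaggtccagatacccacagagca
Tgm4: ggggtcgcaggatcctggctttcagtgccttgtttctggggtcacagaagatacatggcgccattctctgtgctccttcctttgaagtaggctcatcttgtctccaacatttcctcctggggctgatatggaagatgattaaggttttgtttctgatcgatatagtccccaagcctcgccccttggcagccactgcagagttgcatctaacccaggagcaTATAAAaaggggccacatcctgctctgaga
Wfdc12: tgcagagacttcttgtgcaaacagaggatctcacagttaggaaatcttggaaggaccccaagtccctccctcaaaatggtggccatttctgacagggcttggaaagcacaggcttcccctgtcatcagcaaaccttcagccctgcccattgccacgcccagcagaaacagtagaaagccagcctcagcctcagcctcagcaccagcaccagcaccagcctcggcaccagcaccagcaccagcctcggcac
The Pbsn window held a half-site at position -95 and a TATA motif at position -59 from the start, the Tgm4 window a TATA motif at -30, and the Wfdc12 window neither. The E-box CACGTG, the core of the site that MYC and MAX bind, was in none of the 3 windows. The windows of Itln1, lower in MYC DLP, and Folh1, higher there, were also searched and held none of these motifs. Over the same window, the half-site was found in 13.0% of the 9731 compared genes that have a RefSeq promoter, in 17.6% of the genes higher and in 16.3% of those lower in MYC DLP. The E-box was found in 10.02%, 5.81% and 8.33% and the TATA motif in 8.43%, 12.1% and 15.97%. These shares are descriptions of letters and not of binding.

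Among genes whose mean reached 10 FPKM, the largest log2 ratio above 0 was that of Wfdc12. Wfdc12, a whey acidic protein-type protease inhibitor, was at 0.163 FPKM in WT and at 1657 FPKM in MYC DLP, a log2 ratio of 10.48. The beta-defensin genes Defb28 and Defb29, both on chromosome 2, had 204 and 79.6 FPKM in MYC DLP, where Defb28 is listed at 0 in WT DLP and Defb29 had 0.107 FPKM. Igf2, the fetal insulin-like growth factor, had 4.20 and 290 FPKM. Folh1, which encodes prostate-specific membrane antigen, is listed at 0 in WT DLP and had 63.1 FPKM in MYC DLP. Dmbt1, a mucosal scavenger receptor, had 0.007 and 54.2 FPKM, and Calcb, a calcitonin gene-related peptide, 0.364 and 60.5 FPKM. Crabp1, a carrier of retinoic acid, had 0.213 and 58.2 FPKM. The WT DLP library thus held under 5 FPKM of each of these 8 genes, and MYC DLP over 50 FPKM of each.

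Among the genes lower in MYC DLP with the same mean, Itln1 was the furthest from WT. Itln1, a lectin that binds microbial sugars, had 647 FPKM in WT against 1.20 FPKM in MYC DLP, a log2 ratio of -8.20 and a 539-fold difference. Pnliprp1, a pancreatic lipase-related gene, had 70.2 and 1.02 FPKM. Pcp4, a calmodulin-binding peptide gene, had 339 and 12.8 FPKM. Tcaf3, a TRP channel-associated factor gene, had 414 and 21.8 FPKM. The antioxidant enzyme gene Prdx6 had 999 and 83.9 FPKM, the methyltransferase gene Inmt 213 and 17.8 FPKM, and Gm5547 58.7 and 0.798 FPKM. Azgp1, a zinc-binding secreted glycoprotein, had 44.8 and 3.63 FPKM, and Gsdma, a pore-forming gasdermin, 41.8 and 3.36 FPKM. Apart from Itln1, Pnliprp1 and Gm5547, these genes kept over 3 FPKM in MYC DLP.

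**Figure D2:**
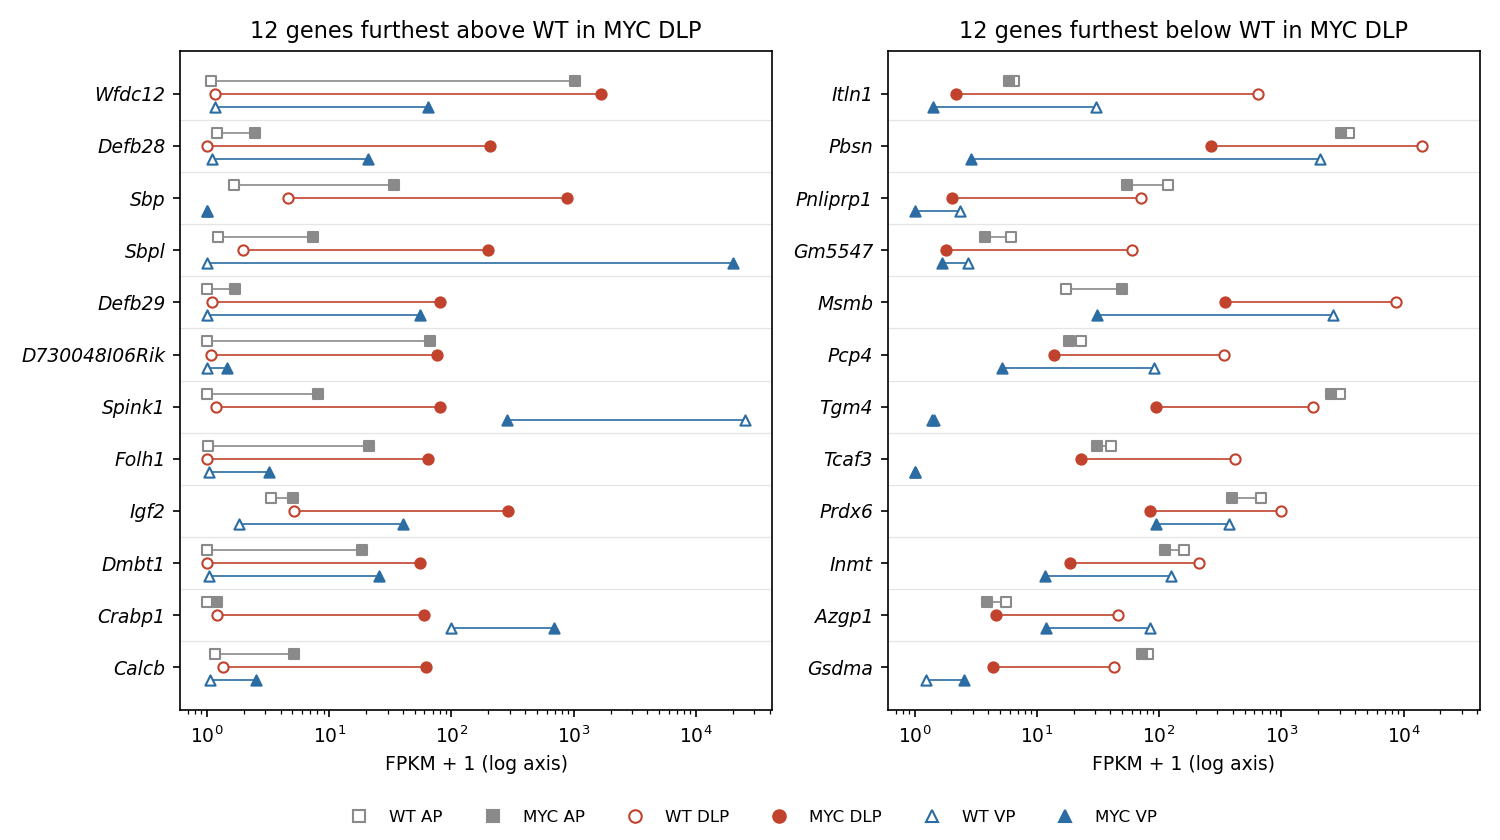
FPKM + 1 on a log axis of the 12 genes furthest above WT (left) and the 12 furthest below WT (right) in MYC DLP, among genes whose mean reached 10 FPKM and without small RNA genes. Open symbols are WT and filled symbols MYC libraries, 1 each, with squares for AP, circles for DLP and triangles for VP. Tgm4 and Gsdma keep their level in the AP, and Spink1 goes the other way in the VP.

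Leaving out small RNA genes, most genes that were near absent from one DLP library were higher in MYC. With a limit of under 1 FPKM in one library and at least 10 FPKM in the other, 36 genes were present in MYC DLP and not in WT DLP, and 1 gene, Gm5547, the other way. With small RNA genes the counts were 43 and 15. Beside the genes named above, the 36 included Ltf (lactoferrin, 0.334 and 49.8 FPKM), the related genes Khdc1a and Khdc1c (37.6 and 40.8 FPKM in MYC DLP) and Msln (mesothelin, 0.496 and 23.5 FPKM). Gh, which encodes growth hormone, is listed at 0 in WT DLP and had 19.8 FPKM in MYC DLP. These genes were chosen after their values were seen. Khdc1a and Khdc1c share sequence, so that reads of one may be assigned to the other.

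Some of the genes higher in MYC DLP have a high level in the VP or are genes of the seminal vesicle, and their values there are given beside them. The VP genes had at least 30 FPKM in both VP libraries, and at least 30 times their WT DLP level. Spink1, a protease inhibitor, was at 25232 FPKM in WT and at 285 FPKM in MYC VP, and its 79.5 FPKM in MYC DLP were 27.9% of the MYC VP level. Crabp1 in MYC DLP was at 8.52% of its MYC VP level and Scgb2b27, a secretoglobin gene, at 4.51%. The keratin-associated genes Krtap3-2 and Krtap3-3, which both WT and MYC VP hold at over 50 FPKM, were at 8.62% and 6.78%. Spink5, a protease inhibitor of the same family as Spink1, was at 41.2%, so that these shares ran from 4.51% to 41.2%. The seminal vesicle genes Svs4 and Svs5 are listed at 0 in WT DLP and had 4.68 and 2.62 FPKM in MYC DLP, 1.60% and 1.24% of their level in MYC AP, and Svs1 is listed at 0 in both DLP libraries. The less abundant seminal vesicle genes Svs3a and Svs3b had 1.11 and 2.13 FPKM in MYC DLP and 1.39 and 1.95 FPKM in MYC AP. Tissue of another lobe or of the seminal vesicle as part of these values was not tested.

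The machinery of the secretory pathway lay mostly below WT in MYC DLP. Of 25 endoplasmic reticulum (ER) chaperone genes compared, 8 were lower and 1 higher, and 24 were below 0, with a median log2 ratio of -0.86. Creld2 had 290 FPKM in WT against 71.0 FPKM in MYC DLP. Pdia6, a disulfide isomerase gene, had 540 and 160 FPKM, and Calr, the calcium-binding chaperone calreticulin, had 1166 and 528 FPKM. Hspa5, the main ER chaperone, had 1133 and 784 FPKM, short of 2-fold. Ero1l, an oxidase of the same compartment, was the exception, with 7.33 and 26.8 FPKM. Of 48 genes of the translocon and vesicle transport, 2 were lower, a share near the 3.39% lower over all genes. Of the 48, 46 were below 0, with a median of -0.31, while 6618 of all 12361 genes were above 0. Tmed3, a cargo receptor, was 1 of the lower genes with 296 and 112 FPKM. The ER chaperone list had a median of -1.11 in the VP, and the sums of the ER chaperones were 7032 FPKM in WT and 3648 FPKM in MYC DLP.

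Androgen response genes as a list lay near the background. Of 48 compared, 3 were higher and 3 lower in MYC DLP, with a median of -0.06, beside 6.46% higher and 3.39% lower over all genes. Among the lower members, Hpgd, a prostaglandin dehydrogenase, was at 55.9 FPKM in WT and at 8.74 FPKM in MYC DLP. Sord, sorbitol dehydrogenase, had 39.7 and 15.2 FPKM. The higher members were Ank, Krt19 and Cenpn. Ank, a transporter of pyrophosphate and citrate, had 14.5 and 88.4 FPKM. Fkbp5 and Tmprss2, both known to respond to androgens, had 43.8 and 32.2 FPKM and 20.3 and 15.47 FPKM, within 2-fold. Of 17 luminal transcription factor genes, 1 was higher (Elf3, 27.1 and 85.3 FPKM) and 1 lower, and the median was -0.23, while Hoxb13 had 107 and 64.8 FPKM and Foxa1 141 and 107 FPKM.

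Cell cycle genes were higher in MYC DLP. Of 44 G2/M genes compared, 33 were higher and none lower, with a median log2 ratio of 1.72, and of 40 S phase genes 16 were higher and none lower, with a median of 0.93. Mki67, the proliferation marker, had 0.721 FPKM in WT against 10.4 FPKM in MYC DLP. Ube2c, the ubiquitin-conjugating enzyme of mitotic exit, had 0.614 and 22.9 FPKM, and Top2a, topoisomerase II, 0.604 and 9.58 FPKM. Among S phase genes, the helicase subunit gene Mcm6 had 1.65 and 11.1 FPKM and Uhrf1, which maintains DNA methylation, 0.444 and 6.02 FPKM. The G2/M median rests on genes of low level and was 0.11 over members averaging at least 10 FPKM. Of 54 G2/M and 50 S phase genes listed, 44 and 40 passed the filter on the level. Members such as Mki67 passed it through the MYC libraries.

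Ribosomal protein genes lay above WT in MYC DLP, mostly by less than 2-fold, and ribosome biogenesis genes lay on both sides. Of 79 cytosolic ribosomal protein genes, 78 were above 0 in DLP with a median log2 ratio of 0.68, but 3 were at least 2-fold higher and 1 lower. Rps26 was at 1747 FPKM in WT and at 3897 FPKM in MYC DLP. The lower gene, Rpl30, had 34.6 and 16.7 FPKM. Ribosomal protein genes have many processed pseudogenes, and the counting could split their reads. Of 42 ribosome biogenesis genes, none was past 2-fold in either direction, 20 were above 0, and the median was 0.00. Npm1, nucleophosmin, had 273 and 460 FPKM, and Nop58, a nucleolar protein gene, 132 and 72.4 FPKM. In the VP the medians of these 2 lists were 1.35 and 0.69, and each of the 79 and 42 genes had a lower log2 ratio in DLP than in VP. The medians of mitochondrial ribosomal proteins (0.21), oxidative phosphorylation (0.16) and cholesterol synthesis (0.03) were also closer to that of all genes than in the VP. Glycolysis genes had a median of 0.36 in DLP and -0.12 in VP, with 1 of 20 past 2-fold in DLP, the lactate exporter gene Slc16a3.

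Interferon-stimulated genes were higher in MYC DLP. All 42 genes compared were above 0, and 33 were past 2-fold, with a median log2 ratio of 1.46 in DLP and 1.35 in VP. Zbp1, a sensor of nucleic acids, had 1.64 FPKM in WT against 21.5 FPKM in MYC DLP. Isg15, a ubiquitin-like modifier, had 12.6 and 56.4 FPKM, and Ifitm3, an antiviral membrane protein, 357 and 820 FPKM. Of 23 MHC class I genes, 6 were higher, with Psmb8, an immunoproteasome subunit, at 14.2 and 37.8 FPKM. B2m, the light chain of MHC class I, had 4736 and 2385 FPKM, just short of 2-fold lower.

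**Figure D3:**
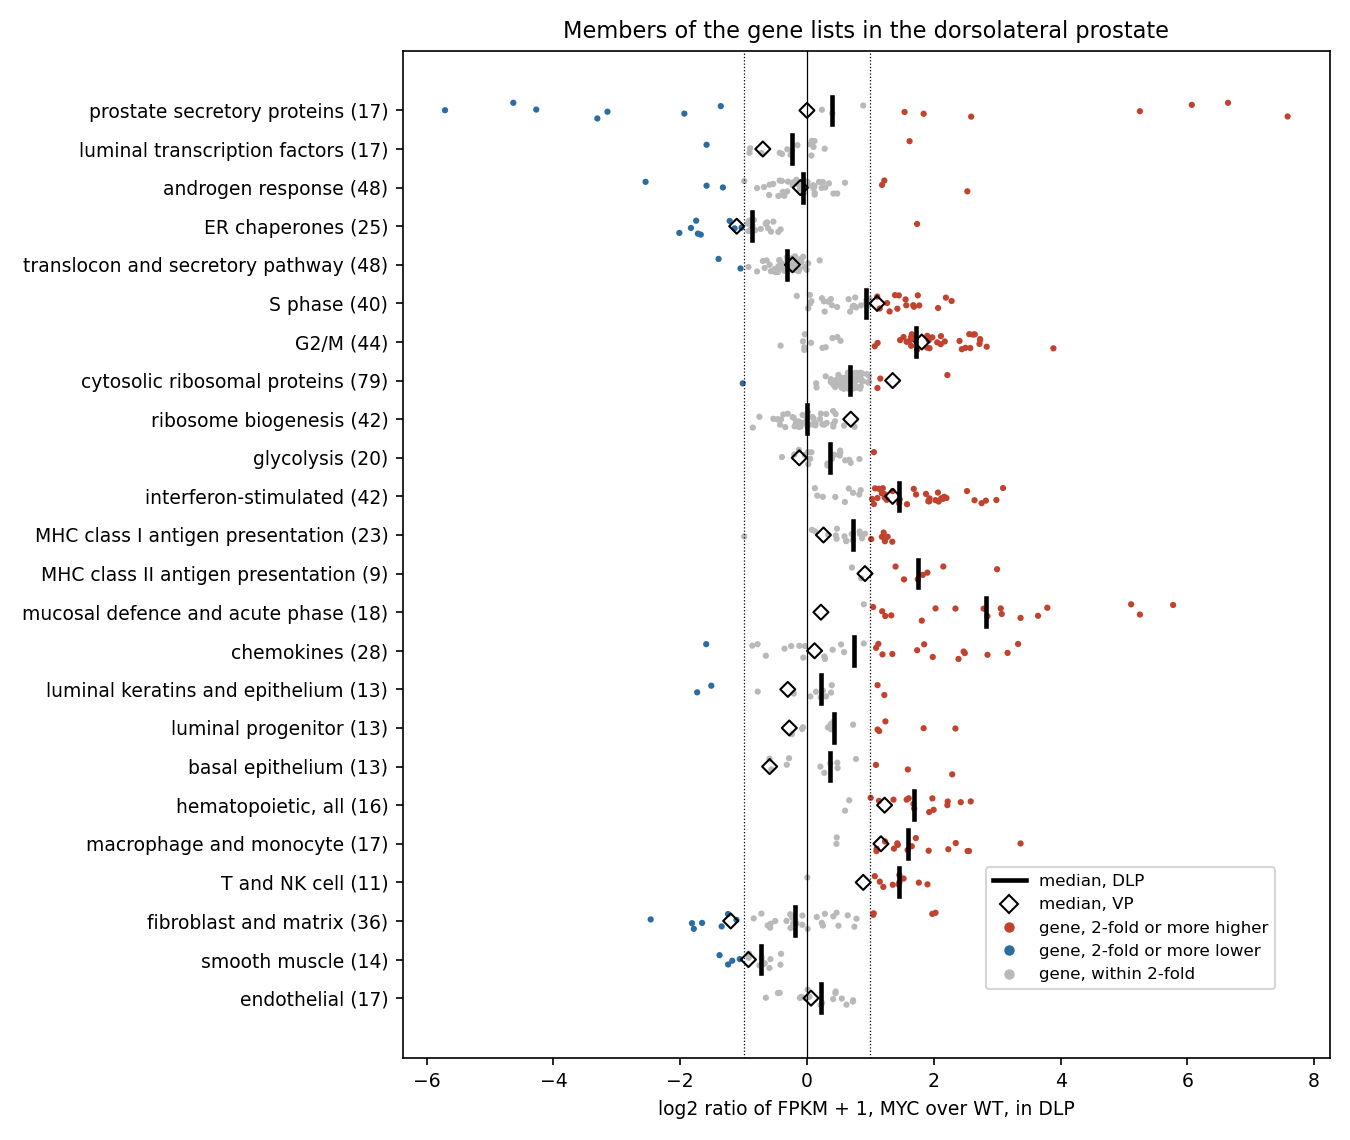
Log2 ratio of (FPKM + 1), MYC over WT, in DLP for the members of 24 gene lists, with the number compared in parentheses. Points are genes, the thick bar is the median in DLP and the open diamond the median in VP, 1 library per lobe and genotype. The medians of the interferon, G2/M, MHC class II and mucosal defence lists lie above 1, and that of the ER chaperones lies at -0.86.

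Markers of immune cells were higher in MYC DLP beside these lists. Of 16 hematopoietic genes, 14 were higher and none lower, and the list summed to 148 FPKM in WT and 479 FPKM in MYC DLP, against 87.5 and 216 FPKM in the VP, where 12 were higher (6.88% over all genes), and 220 and 240 FPKM in the AP. Ptprc, which encodes CD45, had 3.18 and 11.4 FPKM, and Fcer1g, a receptor chain of myeloid cells, 5.35 and 37.1 FPKM. Of 17 macrophage and monocyte genes, 15 were higher, with a sum of 129 FPKM in WT and 596 FPKM in MYC DLP. In VP, 11 of the 17 were higher, with sums of 76.6 and 387 FPKM. Of 24 T and NK cell genes listed, 11 were compared, and 10 of these were higher in DLP. Members low in WT could pass the filter on the level through the MYC libraries, so that this count is a description. In VP, 3 of the 11 were higher and 1 lower. The whole list summed to 33.5 and 108 FPKM in DLP and to 21.0 and 53.9 FPKM in VP. The macrophage gene C1qa had 19.2 and 93.8 FPKM and the T cell receptor gene Cd3e 1.98 and 10.1 FPKM. The B and plasma cell list summed to 1.46 and 12.9 FPKM, of which Cd79a made up 0.745 and 5.06 FPKM. Of 13 MHC class II genes listed, 9 were compared and 7 of these were higher, with Cd74, the invariant chain, at 229 and 856 FPKM. The part of these cells in the interferon, MHC and chemokine values was not tested.

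Chemokine genes differed in both directions, with 13 of 28 higher and 1 lower. Cxcl10, which attracts T cells, was at 37.0 FPKM in WT and at 212 FPKM in MYC DLP, and the eosinophil attractant Ccl11 had 55.4 and 17.7 FPKM. Ccl6, a macrophage chemokine, had 1.17 and 20.8 FPKM. The neutrophil attractants Cxcl1 and Cxcl2 had 134 and 164 FPKM and 143 and 173 FPKM, within 2-fold. Over members averaging at least 10 FPKM the median of 0.74 turned to -0.06.

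Genes of mucosal defence and the acute phase were higher in MYC DLP. Of 34 genes listed, 18 were compared, and 17 of these were higher in MYC DLP, with a median log2 ratio of 2.82 beside 0.22 in VP. Without the filter on the level, the median in DLP was 1.21. Several members passed the filter on the level through MYC DLP alone and had to differ, so that this count and the 2.82 are descriptions. Lcn2, an iron-binding protein of innate defence, had 80.5 FPKM in WT against 204 FPKM in MYC DLP, and Wfdc2, an epithelial protease inhibitor, had 34.6 and 180 FPKM. Wfdc15b had 1.15 and 73.6 FPKM, Slpi, a leukocyte protease inhibitor, 0.0633 and 6.65 FPKM, and Reg3g, an antibacterial lectin, 0.187 and 8.88 FPKM. S100a8 and S100a9, the calprotectin subunits of neutrophils and stressed epithelium, had 1.26 and 18.0 FPKM and 0.402 and 16.6 FPKM. Of the 16 genes of the neutrophil and mast cell list, which holds both, 9 were compared, and 5 of these were higher and none lower in MYC DLP, with a median of 1.51. This count too is a description, since members such as S100a9 passed the filter through MYC DLP, and without the filter the median was 0.90. The whole list summed to 6.87 FPKM in WT and 57.3 FPKM in MYC DLP, against 3.70 and 2.65 FPKM in VP. On that list, Csf3r, a neutrophil receptor gene, had 0.514 and 3.56 FPKM, Hdc, which makes histamine, 0.695 and 4.80 FPKM, and the mast cell protease gene Mcpt4 0.959 and 4.57 FPKM. Ly6g, Elane and Mpo were under 0.1 FPKM in both DLP libraries. The part of these cells in the mucosal defence values was not tested. Lyz2, also on the macrophage list, had 11.8 and 132 FPKM.

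Many keratin genes were higher in MYC DLP. Of the 18 keratin genes compared, a family chosen after its values were seen, 9 were higher and none lower in DLP, against 1 higher and 3 lower in VP. Krt6a, a keratin of activated epithelium, was at 7.33 FPKM in WT and at 88.3 FPKM in MYC DLP. Krt19 had 444 and 1035 FPKM, Krt7 69.4 and 151 FPKM, and the basal keratin Krt5 115 and 245 FPKM. Its partner Krt14 had 378 and 438 FPKM, within 2-fold. Krt4, a keratin of the luminal progenitor list, had 20.3 and 45.9 FPKM in DLP and 53.3 and 7.09 FPKM in VP.

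Of the luminal progenitor list, 5 of 13 genes were higher and none lower in DLP, with a summed level of 1506 FPKM in WT and 3313 FPKM in MYC DLP. Clu accounts for most of this difference in the sum. Ly6a, which encodes Sca-1, had 161 and 381.6 FPKM. Cd44 and Psca had 49.6 and 64.7 and 168 and 161 FPKM, within 2-fold. Of 13 basal genes, 3 were higher, Krt5, Aqp3 and Trp63. Trp63, the p63 factor that defines basal cells, had 3.81 and 13.5 FPKM. The medians of the luminal keratin, luminal progenitor and basal lists were 0.22, 0.42 and 0.37 in DLP and below 0 in VP.

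Stromal genes differed in both directions in DLP. Of 36 fibroblast and matrix genes, 7 were lower and 4 higher, with a median of -0.19 beside -1.20 in VP. The fibroblast genes Dcn (decorin), Apod and Pdgfra had 1155 and 454, 456 and 132, and 26.6 and 7.76 FPKM in WT and MYC DLP. The fibrillar collagen genes Col1a1 and Col3a1 went the other way, with 10.6 and 44.8 FPKM and 22.3 and 94.0 FPKM. In VP, the log2 ratios of Col1a1 and Col3a1 were 0.19 and -0.45. Srd5a2, the 5-alpha-reductase that makes dihydrotestosterone, had 24.1 and 3.55 FPKM in DLP. Each of the 14 smooth muscle genes was below 0, and 4 were at least 2-fold lower, with Myh11, a smooth muscle myosin, at 43.2 and 18.5 FPKM. Actg2, a smooth muscle actin, had 27.0 and 13.9 FPKM, short of 2-fold. None of 17 endothelial genes was past 2-fold. Fabp4, named as an adipocyte marker, had 64.0 and 64.8 FPKM, while Adipoq is listed at 0 in both DLP libraries.

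**Figure D4:**
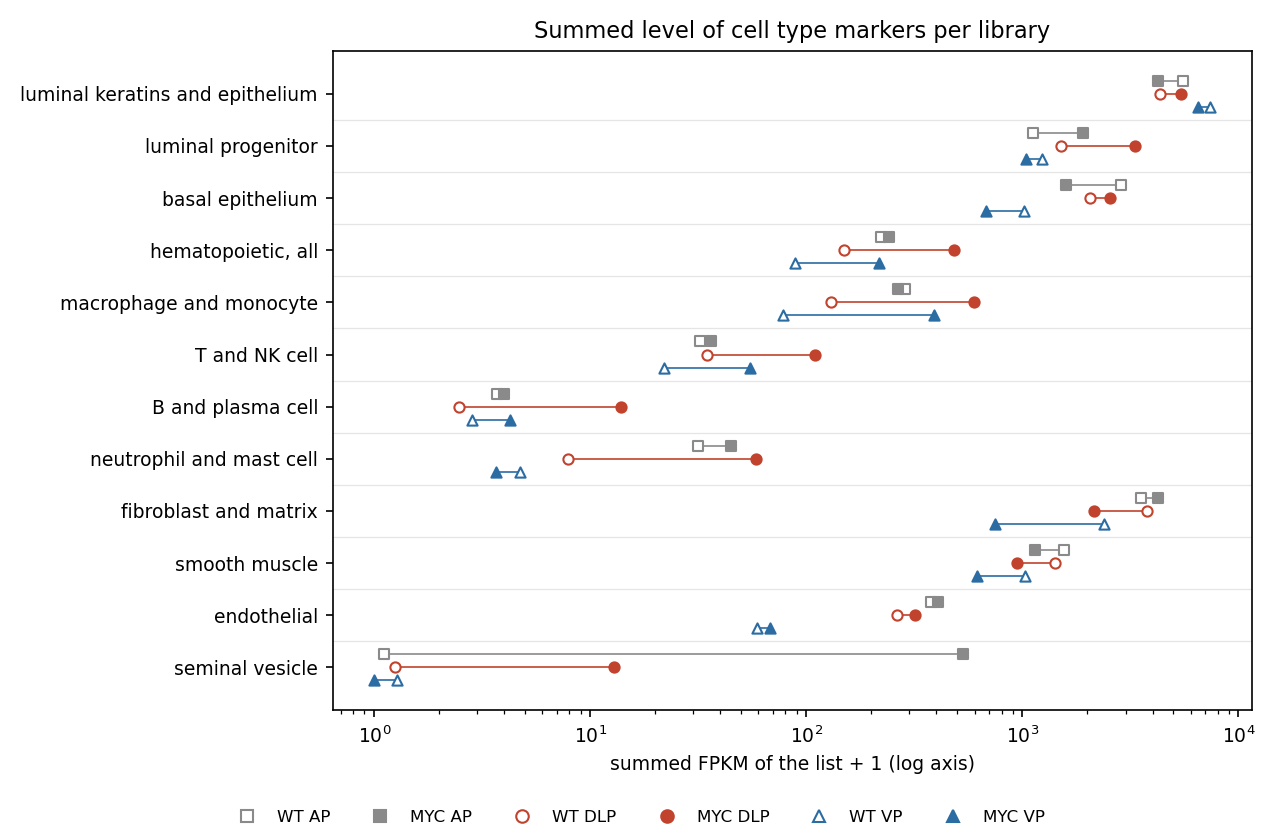
Summed FPKM + 1 of 12 cell type marker lists on a log axis, for each of the 6 libraries. Open symbols are WT and filled symbols MYC, with squares for AP, circles for DLP and triangles for VP. The hematopoietic sum goes from 148 to 479 FPKM in DLP, and the fibroblast sum from 3765 to 2145 FPKM.

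Lists of other cell states lay near the background of 6.46% higher and 3.39% lower. Of 27 genes induced by tissue dissociation, 2 were higher in MYC DLP, Myc itself and Dusp2, with a median of 0.18, and none of 18 cytosolic heat shock genes was past 2-fold. Of 25 p53 target and apoptosis genes, 2 were higher, Pmaip1 (10.3 and 34.4 FPKM) and Bak1 (6.78 and 16.1 FPKM). Of these 25 genes, 20 were above 0, and their median was 0.47, beside 0.03 for all genes. Smox and Paox, enzymes of polyamine catabolism, had 23.6 and 84.6 FPKM and 2.34 and 10.8 FPKM, while Odc1, the first enzyme of polyamine synthesis, had 87.2 and 79.8 FPKM. Of the neuroendocrine list, 3 of 12 genes were compared, and Syp and Chga had under 3 FPKM in both DLP libraries.

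The same comparison in the VP gave 850 genes higher (6.88%) and 736 lower (5.95%). Of the 799 genes higher in MYC DLP, 349 were also higher in VP (43.7% of the DLP genes and 41.1% of the VP genes), 435 were within 2-fold there and 15 were lower. Of the 419 lower genes, 232 were also lower in VP (55.4% and 31.5%), 180 were within 2-fold and 7 were higher. A gene was taken as stronger in DLP when it was past 2-fold in DLP and its log2 ratio exceeded that in VP in the same direction by at least 1. By this rule 278 genes (2.25%) were higher by more in DLP and 94 (0.76%) lower by more, against 165 and 238 genes stronger in VP. With 1 library per lobe and genotype the difference between lobes could not be tested.

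**Figure D5:**
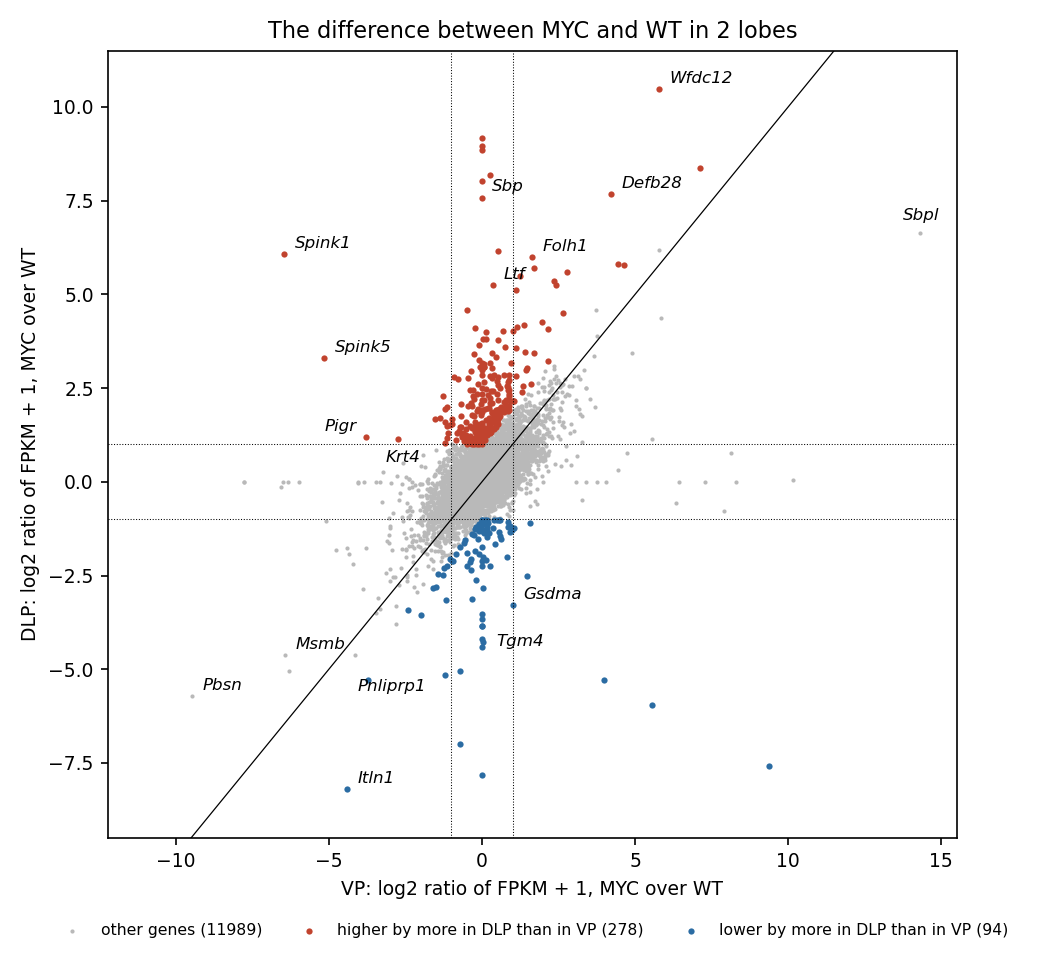
Log2 ratio of (FPKM + 1), MYC over WT, in VP (horizontal) and DLP (vertical) for the 12361 genes compared, 1 library per lobe and genotype. The solid line marks equal log2 ratios and the dotted lines 2-fold. The 278 genes higher by more in DLP gather near 0 on the VP axis, Spink1 and Spink5 lie to the left, and Pbsn and Msmb lie nearer to 0 in DLP than in VP.

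Most of the 278 genes higher by more in DLP were within 2-fold in VP. There, 232 of them were within 2-fold and 31 were also higher, and 81 had under 1 FPKM in both VP libraries. In AP, 83 were higher in MYC, where 254 of all genes compared (2.05%) were. Among these 278 genes, the largest difference between lobes was that of Spink1, with log2 ratios of 6.07 in DLP and -6.46 in VP. Spink5 had 0.367 FPKM in WT against 12.4 FPKM in MYC DLP and 1104 and 30.01 FPKM in VP. For both genes the MYC level in DLP stayed below that in VP. In VP, both libraries list Sbp at 0, and Sbpl, which shares its sequence, had 20155 FPKM in MYC VP, so that the difference of Sbp between lobes cannot be read apart from the split of reads.

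D730048I06Rik (RefSeq name Pate6), a gene of small secreted proteins, was at 0.0751 FPKM in WT and at 75.4 FPKM in MYC DLP. It was as high in MYC AP, with 65.7 FPKM, and had 0.453 FPKM in MYC VP. Wfdc12 likewise had 1028 FPKM in MYC AP and 62.7 FPKM in MYC VP, and Folh1 20.1 and 2.24 FPKM. Fmo1, a flavin monooxygenase, had 14.7 FPKM in WT against 122 FPKM in MYC DLP. Pigr, which carries antibodies across epithelium, had 17.2 and 40.4 FPKM in DLP and 349 and 24.4 FPKM in VP. Each of these genes was higher in the MYC libraries of DLP and AP, while in VP Wfdc12 and Folh1 were higher, Pigr was lower and the others were within 2-fold.

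Of the 94 genes lower by more in DLP, 74 were within 2-fold in VP and 13 also lower there, and 28 had under 1 FPKM in both VP libraries and so could not be lower. In AP, 9 of them were lower in MYC, where 74 of all genes compared (0.599%) were. Tgm4 had 0.400 and 0.446 FPKM in WT and MYC VP, and 3016 and 2545 FPKM in WT and MYC AP. Tcaf3 had 39.3 and 30.3 FPKM in the AP, Pnliprp1 117 and 53.4 FPKM, and Chn2, a Rac GTPase-activating protein gene, 88.8 and 56.0 FPKM against 90.7 and 9.46 FPKM in DLP. 9530053A07Rik, which encodes a protein like the IgG Fc-binding mucin, had 1456 and 202 FPKM in DLP and 4177 FPKM in WT AP and is listed at 0 in MYC AP.

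Genes shared by the WT DLP and WT AP were examined as a group after these values were seen. A total of 39 genes had at least 10 FPKM in both and, with 1 FPKM added, at least 4 times the level of WT VP in both. Of these, 14 were lower and 4 higher in MYC DLP, beside 3.39% lower and 6.46% higher over all genes. In DLP 24 were below 0, and the median log2 ratio was -0.65 in DLP and -0.03 in AP. In AP 3 were lower, among them 9530053A07Rik, listed at 0 there. The choice uses the WT DLP level and so leans toward lower ratios in DLP, and it uses the WT AP level in the same way. C1rb, a complement protease gene, had 78.2 and 17.2 FPKM in DLP and 369 and 259 FPKM in AP, and Glb1l3, a galactosidase-like gene, 15.8 and 2.52 FPKM and 177 and 147 FPKM. Fcgbp, a mucin-like secreted protein, had 56.2 and 14.6 FPKM in DLP and 134 and 182 FPKM in AP. By the same levels, 8 genes were at least 4 times as high in WT DLP as in both other WT lobes, and 6 of these were lower in MYC DLP. The exceptions were the protease gene Mmp7, with 414 and 651 FPKM, and the neuropeptide gene Npy, with 10.8 and 12.6 FPKM. This choice too uses the WT levels and so leans toward lower ratios in DLP and higher ones in AP. In AP none of the 8 was lower, and their median was 0.50. Tcaf3 and Mmp7 are also among the 39 genes.

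Of the genes that went opposite ways in the 2 lobes, the gasdermin family held examples of both kinds. Gsdmc2, Gsdmc3 and Gsdmc4 were all higher in MYC DLP, with 8.41 and 44.6, 6.07 and 26.1, and 1.14 and 7.97 FPKM. In VP, Gsdmc2 had 9.78 and 3.46 FPKM, a log2 ratio of -1.27, and Gsdmc3 a log2 ratio of -1.21. These genes share sequence as neighbours on chromosome 15, and reads may be split between them. Gsdma had 41.8 and 3.36 FPKM in DLP, 0.247 and 1.52 FPKM in VP and 80.8 and 70.9 FPKM in AP. Depp1, a target of FOXO factors, had 13.5 and 45.3 FPKM in DLP and 12.3 and 3.57 FPKM in VP. Of the 7 genes lower in DLP and higher in VP, 5 were small RNA genes, and the others were Gsdma and Prr9, which had 32.6 and 13.4 FPKM in DLP and 1.87 and 4.88 FPKM in VP.

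Some of the genes furthest from WT in DLP were also far from it in VP, and Pbsn, Msmb and Defb50 were further. Pbsn and Msmb had log2 ratios of -5.71 and -4.63 in DLP and -9.47 and -6.43 in VP, and Defb50 -1.93 and -4.34. Msmb and Defb50 still had 346 and 4866 FPKM in MYC DLP, against 29.96 and 550 FPKM in MYC VP. Inmt had -3.50 in DLP and -3.44 in VP, and Defb29 6.19 and 5.78. The log2 ratio of Myc was 1.54 in DLP and 2.90 in VP.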

How the data were processed

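The libraries were poly(A)-selected, stranded and sequenced as single-end reads. The authors aligned the reads with STAR and estimated FPKM with Cufflinks within the VIPER workflow, and the deposited table holds FPKM of mm10 genes per library, with no read counts.

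The members and gene lists were chosen with earlier results of these data known. Genes averaging at least 1 FPKM were compared as log2 of (FPKM + 1) ratios with Python 3.11.15, numpy 2.4.6 and pandas 2.3.3. No test was run, since each lobe and genotype has 1 library. Estimated reads were recovered from the steps between low FPKM values and from GENCODE transcript lengths. Of the low values, 33.8% to 48.3% lay within 0.03 of whole reads, against 6% by chance, so that depths are estimates. GENCODE gave lengths for 90.04% of compared genes, and a median length of 1695 bases stood in for the rest. Counting intervals used scipy 1.17.1, and figures matplotlib 3.10.9.

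Named were the 12 genes with the largest log2 ratio each way at a mean of at least 10 FPKM, without small RNA genes, the 8 with the largest difference between DLP and VP each way, the 5 largest opposite pairs each way, the highest and furthest members of each list, and genes the study names. Genes outside this rule were chosen after their values were seen, or serve as markers, and some genes of the rule are not reported here. Positions and promoters are from RefSeq, GRCm38.p6, and 24344 symbols matched. The pseudocount, the filter, the scaling, small RNA genes, values listed at 0 and the fold were varied.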

Additional observations from a re-analysis of the deposited data

Results flagged for a closer look

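Some genes had log2 ratios of (FPKM + 1), MYC over WT, of opposite sign in DLP and VP, past 2-fold in both. With 1 library per lobe and genotype the difference between lobes was not tested. The DLP minus VP difference of the log2 ratios was 12.53 for Spink1, 8.45 for Spink5, 4.97 for Pigr, 3.89 for Krt4, 3.55 for Gsdmc2, 3.21 for Depp1 and 3.15 for Gsdmc3, all higher in MYC DLP and lower in MYC VP. It was -4.31 for Gsdma and -2.25 for Prr9, lower in MYC DLP and higher in MYC VP.

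The medians of 3 epithelial lists were above 0 in DLP and below 0 in VP, and this difference was not tested either. For luminal keratins the median log2 ratio was 0.22 in DLP and -0.30 in VP, the luminal progenitor list 0.42 and -0.28, and the basal list 0.37 and -0.59.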

How the results depend on the processing

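No paired analysis was possible because each lobe and genotype has 1 library. Of 60 recomputed counts of genes, 44 stayed within 1.5 times the reported count. Of 310 recomputed list medians, 301 stayed close, 7 differed by more and 2 turned sign. A turn of sign was counted only where 1 of the 2 medians was at least 0.1 from 0. Smaller medians that changed sign, such as that of cholesterol synthesis, count as close. Of 488 recomputed log2 ratios of named genes, 470 stayed close, and the other 18 all came from a pseudocount of 0.1. With a pseudocount of 0.1, 632 genes were lower in MYC DLP, 144 were lower by more in DLP than VP, 37 and 17 went opposite ways in the lobes, and the medians were 3.45 for G2/M, 3.60 for mucosal defence and 2.26 for the neutrophil and mast cell list. Without a filter, the medians of the last 2 lists were 1.21 and 0.90. With a mean of at least 10 FPKM, 241 genes were higher and 195 lower in MYC DLP, 102 and 44 by more than in VP, and the medians were -1.65 for secretory proteins, 0.11 for G2/M, 1.84 for mucosal defence and -0.057 for chemokines. Leaving out small RNA genes left 2 genes lower in DLP and higher in VP, and leaving out genes listed at 0 left 4. At 4-fold, 196 genes were higher and 78 lower, 82 and 26 by more than in VP, and 2 and 3 went opposite ways. In these results, a difference between the animals or in the dissection of the lobes cannot be told apart from the genotype.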

Other observations

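Other gene families with members far from WT in DLP were looked at after their values were seen. Timp1, an inhibitor of metalloproteases, was at 11.8 FPKM in WT and at 232 FPKM in MYC DLP, with a log2 ratio of 4.19 in DLP and 1.36 in VP, and its relative Timp4 had 4.83 and 13.3 FPKM. Of 7 compared small proline-rich genes of the cornified envelope, 3 were higher in MYC DLP. Sprr2a3 had 6.28 and 115 FPKM, while Sprr1a, the highest of the family, had 1569 and 1063 FPKM. Of 8 serpin B genes, 3 were higher, with Serpinb2 at 3.69 and 31.0 FPKM and Serpinb11 at 0.553 and 20.8 FPKM. Ly6d, a surface marker, had 33.7 and 321 FPKM.

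Of 7 beta-defensin genes, 3 were higher and 3 lower in MYC DLP. Defb1 had 1500 and 421 FPKM and Defb10 9.13 and 0.609 FPKM, beside Defb50, while Defb28 and Defb29 were far higher. Of 5 urothelial genes compared, the keratin genes Krt6a and Krt13 were higher, with Krt13 at 10.4 and 33.1 FPKM, and Upk1a, a uroplakin of the bladder lining, was lower, with 268 and 58.1 FPKM. Ido1, a tryptophan-degrading enzyme induced by interferon, had 0.261 and 14.0 FPKM, and Chil3, a chitinase-like protein of macrophages, is listed at 0 in WT DLP and had 13.0 FPKM in MYC DLP.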
